A study of Homo sapiens with 12 samples.

Results

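Isolated regions are stretches of H3K27 acetylation with no other acetylated stretch nearby. Peaks of the 6 H3K27ac lists that shared at least 1 base were joined into 47344 merged regions on chromosomes 1 to 22, and 29296 of them had a peak in both WT clones. Of these, 1236 lay more than 50 kb, edge to edge, from the nearest other merged region on either side and are the isolated regions described here (4.22% of the regions in both WT clones and 2.61% of all merged regions). They were set beside 25469 clustered regions, which also had a peak in both WT clones and had their nearest neighbour within 10 kb. The median distance from a clustered region to its nearest neighbour was 0.203 kb, and 21934 of them had it within 1 kb. A further 2591 regions lay between 10 and 50 kb from a neighbour. Because a peak in both WT clones chose the regions, every count of regions lost against WT is a description with no test.

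H3K27ac, acetylation of lysine 27 on histone H3, marks active promoters and enhancers. CREBBP and EP300 are paralogous acetyltransferases that place this mark, and both genes are recurrently mutated in germinal-centre B-cell lymphoma. Acetylated regions tend to lie in groups around active genes, dense groups being known as super-enhancers, whereas an isolated region has no such neighbourhood.

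The marks were mapped by ChIP-seq in SUDHL4, an established cell line of germinal-centre-type diffuse large B-cell lymphoma. The clones were single-cell clones made with CRISPR/Cas9. There were 2 without EP300 (EP300-KO, guides against exons 17 and 24) and 2 without CREBBP (CREBBP-KO, guides against exons 15 and 20). The other 2 were controls edited at PPP1R12C (WT), and their genotype label names CREBBP alone as wild type. All 3 genotypes thus carry a CRISPR edit and a passage through 1 cell, and the spread between clones is that of 2 such clones a genotype. For the clone given here as exon 15, the title and the protocol differ in the exon they state, and the protocol was followed. The comparison asks how acetylation far from other acetylation fares without either enzyme. The lists held 35054 and 35841 peaks in the EP300-KO clones, 36096 and 41099 in the CREBBP-KO clones, and 46940 and 40658 in the WT clones, and their read depth is unknown. An annotation of the files' build, hg19, was not used here, so regions are given by position, without genes, and the B-cell identity of the clones was not checked.

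The isolated regions were longer in the middle of their range and better scored than clustered ones. The mean covered length over the WT clones, in bases under a peak, had a median of 856.5 bases in isolated regions (lowest 118.5, highest 8620.5) and of 626 bases in clustered regions (highest 55313.5). Short regions under 250 bases made up 7.28% of the isolated and 14.9% of the clustered regions, and regions of 2000 bases or more made up 9.22% and 12.7% of them. Their peaks ranked high within each clone's list by the authors' score. The median percentile of the best peak in an isolated region was 73.2 and 73.1 in the EP300-KO clones, 69.5 and 72.2 in the CREBBP-KO clones, and 76.3 and 70.9 in the WT clones. For clustered regions it lay between 57.9 and 63.6 in the 6 clones. The distance from an isolated region to its nearest neighbour had a median of 88.5 kb and reached 1302 kb, and the farther of the 2 neighbours lay at a median of 254.8 kb.

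Chromosomes differed in how much of their acetylation was isolated. Chromosome 4 had the highest share, 67 of its 1065 regions in both WT clones (6.29%), followed by chromosome 13 (38 of 708, 5.37%) and chromosome 12 (82 of 1602, 5.12%). Chromosome 22 had the lowest, 16 of 799 (2.003%), and chromosome 16 the next, 34 of 1233 (2.76%). None of the 82 isolated regions of chromosome 12 and none of the 12 of chromosome 21 was lost in either knock-out. Over all isolated regions 4.21% were lost in EP300-KO and 3.07% in CREBBP-KO, and the chromosomes were not tested against each other.

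The largest isolated region, chr6:10528544-10537534, covered 8463 and 8178 bases in the EP300-KO clones, 8413 and 8848 bases in the CREBBP-KO clones, and 8649 and 8592 bases in the WT clones. The EP300-KO and CREBBP-KO clones overlapped in this length, and no difference there was called. Of the 8 largest isolated regions, 1 was called between the knock-outs by limma, a linear model across all regions with a Benjamini-Hochberg adjusted p threshold of 0.05, which called 9.26% of all tested regions in this contrast. This was chr7:142710202-142715295, with 1857 and 1640 covered bases in the EP300-KO clones, 3785 and 4708 in the CREBBP-KO clones, and 4769 and 4547 in the WT clones. Both EP300-KO clones lay below the other 4 clones, and the log2 difference between EP300-KO and CREBBP-KO was -1.06 (SE 0.0883, adjusted p = 0.00598). A second of these large regions, chr1:38616515-38620885, covered 2804 and 2923 bases in the EP300-KO clones, 4102 and 4138 in the CREBBP-KO clones, and 4334 and 4006 in the WT clones, again with no overlap, but its adjusted p of 0.0926 missed the threshold.

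The most remote isolated region, chr12:38710516-38711260, had its nearest neighbour 1302 kb away. It covered 631 and 621 bases in the EP300-KO clones, 501 and 681 in the CREBBP-KO clones, and 743 and 621 in the WT clones, and the genotypes overlapped. The next most remote, chr12:19592563-19594038, covered 1251 and 1376 bases in the EP300-KO clones, 1293 and 1476 in the CREBBP-KO clones, and 1255 and 1190 in the WT clones. All 5 of the most remote regions had a peak in every clone. At the threshold itself, the 3 regions just inside lay 50.03 to 50.10 kb from a neighbour and averaged 430, 376.5 and 170.5 covered bases in WT, and the 3 just outside lay 49.8 kb away and averaged 3840, 702.5 and 1428.5 bases.

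Most isolated regions kept a peak in every knock-out clone. Of the 1236, 1074 (86.9%) had a peak in all 4 knock-out clones, as did 70.9% of the clustered regions, and 15 (1.21%) had a peak in none, against 3.43% of clustered regions. No peak was found at 76 and 69 isolated regions in the EP300-KO clones (6.15% and 5.58%, mean 5.87% ± 0.400, SD, n = 2) and at 102 and 47 in the CREBBP-KO clones (8.252% and 3.803%, mean 6.03% ± 3.15, SD, n = 2). The CREBBP-KO clones lay on either side of the EP300-KO clones. The difference of -0.16 percentage points between EP300-KO and CREBBP-KO was smaller than the spread between the CREBBP-KO clones (two-sided exact permutation test over clones, p = 1, smallest possible p 0.333). Clustered regions had no peak in 21.5% and 19.2% of cases in the EP300-KO clones and in 15.9% and 5.86% in the CREBBP-KO clones.

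EP300-KO clones lost a smaller share of isolated than of clustered regions. A region counted as lost when neither clone of a knock-out had a peak in it. In EP300-KO 52 of 1236 isolated regions were lost, or 4.21% (exact 95% interval 3.16 to 5.48%), against 4090 of 25469 clustered regions, or 16.1% (15.6 to 16.5%), with 14.8% lost over all regions in both WT clones. In CREBBP-KO 38 isolated regions were lost, or 3.07% (2.18 to 4.20%), against 1296 clustered regions, or 5.09% (4.82 to 5.37%), with 4.98% lost over all. These intervals cover counting error alone, and regions of 1 clone share its library and are not replicates. The shares rose beyond them with some single clones left out, which also changes what is counted. Without a WT clone, a peak in the other WT clone alone chose the regions. Without a knock-out clone, no peak in the other clone of that knock-out alone counted as lost. Without the first WT clone they were 9.15% in EP300-KO and 7.30% in CREBBP-KO, without the second WT clone 18.2% and 20.3%, and without the second CREBBP-KO clone 8.46% in CREBBP-KO.

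The lost isolated regions were short. Those lost in EP300-KO had a median WT covered length of 297 bases, and 35 of the 52 were under 500 bases. The 1184 that kept a peak in an EP300-KO clone had a median of 871.5 bases. Those lost in CREBBP-KO had a median of 245 bases, with 34 of 38 under 500 bases, and the 1198 with a peak in a CREBBP-KO clone had a median of 868 bases.

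At like covered length, the gap between isolated and clustered regions remained in EP300-KO. Under 250 bases, EP300-KO lost 19 of 90 isolated regions (21.1%, interval 13.2 to 31.0%) against 46.7% of clustered regions. Between 250 and 500 bases it lost 6.25% of isolated regions (3.61 to 9.95%) against 24.4% of clustered ones. Between 500 and 1000 bases the shares were 3.12% and 8.25%, and between 1000 and 2000 bases 1.28% (interval 0.416 to 2.96%) and 2.41%. These intervals also cover counting error alone and are no test of isolated against clustered regions. At 2000 bases or more, none of 114 isolated regions (interval up to 3.18%) and 0.279% of clustered regions were lost. In CREBBP-KO the shares of isolated and clustered regions were close in the shortest classes: 21.11% and 20.97% under 250 bases and 5.86% and 6.31% between 250 and 500 bases. The longer classes differed in both directions, with 2 isolated regions lost in each. The shares were 0.519% and 1.06% between 500 and 1000 bases, and 0.512% and 0.142% between 1000 and 2000 bases. At 2000 bases or more no region of either kind was lost.

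**Figure D1:**
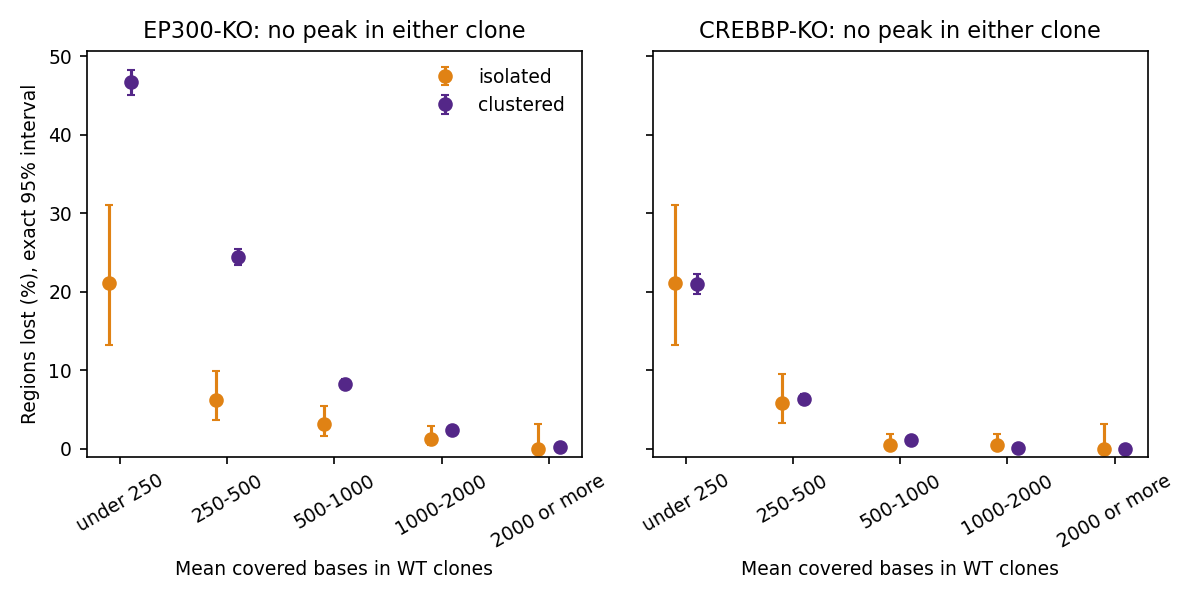
Share of regions with no peak in either EP300-KO clone (left) or either CREBBP-KO clone (right), in percent, by mean covered bases in the WT clones. Points are isolated and clustered regions and bars are exact 95% intervals. In EP300-KO the isolated share stands at 21.1% against 46.7% in the shortest class, and in CREBBP-KO at 21.11% against 20.97%.

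With the clustered regions weighted to the covered lengths of the isolated ones, EP300-KO lost 4.21% of isolated and 11.8% of clustered regions, a difference of -7.61 percentage points. Per clone, the share with no peak differed by -10.4 and -8.69 points in the EP300-KO clones, a mean of -9.55 ± 1.22 (SD, n = 2). In CREBBP-KO the lost shares were 3.07% and 3.21%, a difference of -0.14 points, with -2.72 and 0.054 points in the 2 clones and a mean of -1.33 ± 1.96 (SD, n = 2). Both EP300-KO clones thus lay below both CREBBP-KO clones in this measure, and the difference of -8.22 points had p = 0.333 by a two-sided exact permutation test over clones, the smallest that 2 clones against 2 allow. Lists of unequal length enter this comparison, those of EP300-KO being the shortest, and with every list limited to its 35054 best-scoring peaks the EP300-KO difference was -3.82 points. Clustered regions weighted by score as well as length gave -5.29 points in EP300-KO. In CREBBP-KO the sign was not stable: without the second WT clone the difference was 5.05 points, and without the second CREBBP-KO clone it was -2.68 points.

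The loss did not grow evenly with crowding. Weighted to the lengths of isolated regions, the share lost in EP300-KO was 11.6% for regions up to 1 kb from a neighbour, 15.3% at 1 to 5 kb, 9.23% at 5 to 10 kb, 7.92% at 10 to 25 kb, 5.81% at 25 to 50 kb and 4.21% beyond 50 kb. In CREBBP-KO it was 2.98%, 5.33%, 4.64%, 4.84%, 3.42% and 3.07% over the same distances. In both knock-outs the 1 to 5 kb class lost most, and in EP300-KO each farther class lost less than the one before. Among the isolated regions themselves, EP300-KO lost 37 of 716 at 50 to 100 kb (5.17%), 7 of 326 at 100 to 200 kb (2.15%), 5 of 160 at 200 to 500 kb (3.12%) and 3 of 34 farther away (8.82%, interval 1.86 to 23.7%). CREBBP-KO lost 23, 6, 6 and 3 in these classes, and the last class is too small in both knock-outs to place its share.

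**Figure D2:**
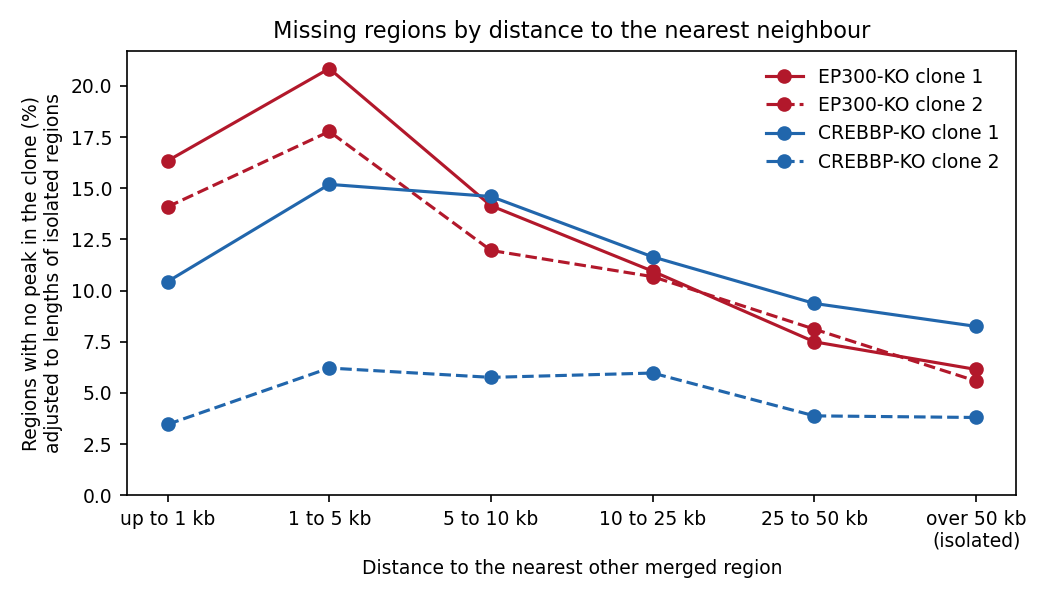
Share of regions with no peak in a knock-out clone, in percent and weighted to the covered lengths of isolated regions, by distance to the nearest merged region. Lines are the 4 knock-out clones. Beyond 50 kb the EP300-KO clones stand at 6.15% and 5.58%, between the CREBBP-KO clones at 8.252% and 3.803%.

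Choosing regions in a single WT clone left the other WT clone free to be read like a knock-out clone. Of 1620 isolated regions with a peak in the first WT clone, 20.6% and 20.7% had no peak in the EP300-KO clones, 27.8% and 21.4% had none in the CREBBP-KO clones, and 23.7% had none in the other WT clone. Of 1317 isolated regions of the second WT clone, 9.87% and 9.34% had no peak in the EP300-KO clones, 12.2% and 7.21% in the CREBBP-KO clones, and 6.15% in the first WT clone. The WT clone read was above both EP300-KO clones under the first choice and below both under the second. Over the 2 choices and 2 clones, EP300-KO exceeded the WT clone read by 0.20 ± 3.77 percentage points in isolated regions (SD over 4 values, -3.09 to 3.72), and by 12.5 ± 1.99 points in clustered regions of like length (10.1 to 14.9). CREBBP-KO exceeded it by 2.23 ± 3.65 points in isolated and 3.69 ± 5.59 points in clustered regions. The isolated values were -0.21 and 0.36 points without the first and second EP300-KO clone, and -0.64 and 5.13 points without the first and second CREBBP-KO clone. The 4 values of a genotype share clones and are not independent, and no test was made on them. The choices differ as the lists do: the first WT clone, with the longest list, had 205 isolated regions found in no other clone, and the second had 32.

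**Figure D3:**
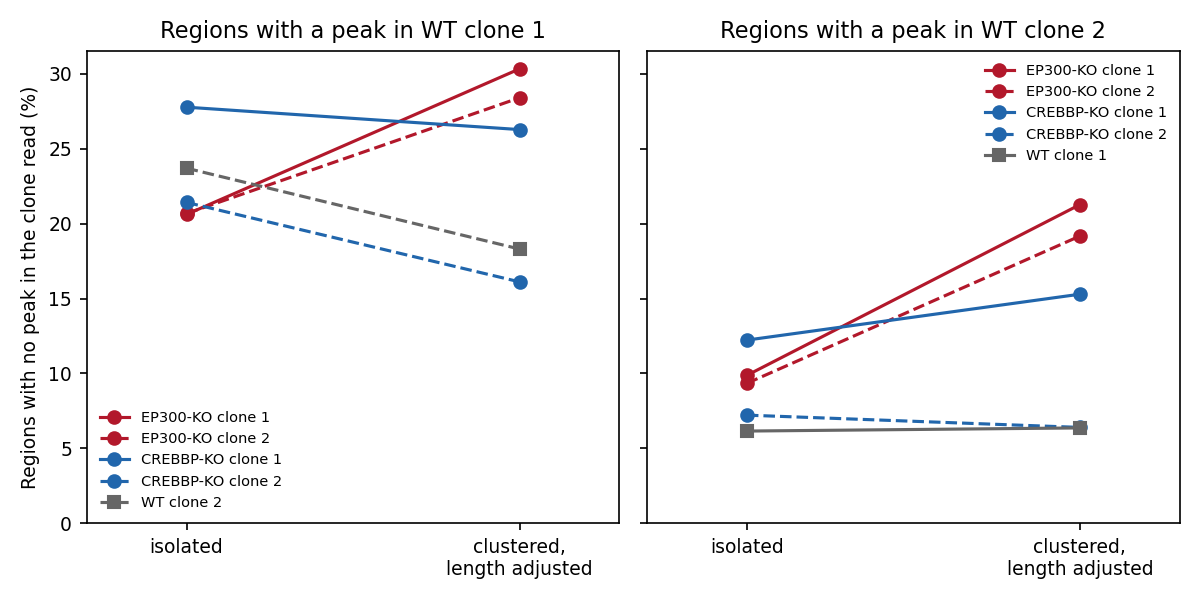
Share of regions with no peak in the clone read, in percent, for isolated regions and for clustered regions weighted to like length. Regions were chosen by a peak in the first WT clone (left) or the second (right), and lines are the clones read. For isolated regions the WT clone read stands at 23.7% and 6.15%, and the EP300-KO clones lie below it at the left and above it at the right.

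Isolated regions of any clone, chosen with no use of genotype, numbered 2026. Of these, 90 (4.44%) had a peak in both EP300-KO clones and in neither WT clone, against 1.76% of all merged regions, and 52 (2.57%) had a peak in both WT clones and in neither EP300-KO clone, against 9.18% of all. Among clustered regions of any clone the order was the opposite, with 637 of 41212 (1.55%) in EP300-KO alone and 4090 (9.92%) in WT alone. For CREBBP-KO, 11 isolated regions (0.543%) had a peak in both CREBBP-KO clones and in neither WT clone, against 1.24% of all merged regions, and 38 (1.88%) in WT alone, against 3.08% of all. Between the knock-outs, 145 isolated regions (7.16%) had a peak in both EP300-KO clones and in neither CREBBP-KO clone, against 2.82% of all merged regions. The reverse held for 29 (1.43%), against 6.48% of all, whereas clustered regions numbered 1015 and 2922. The 3 contrasts share clones, and these counts were not tested.

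**Figure D4:**
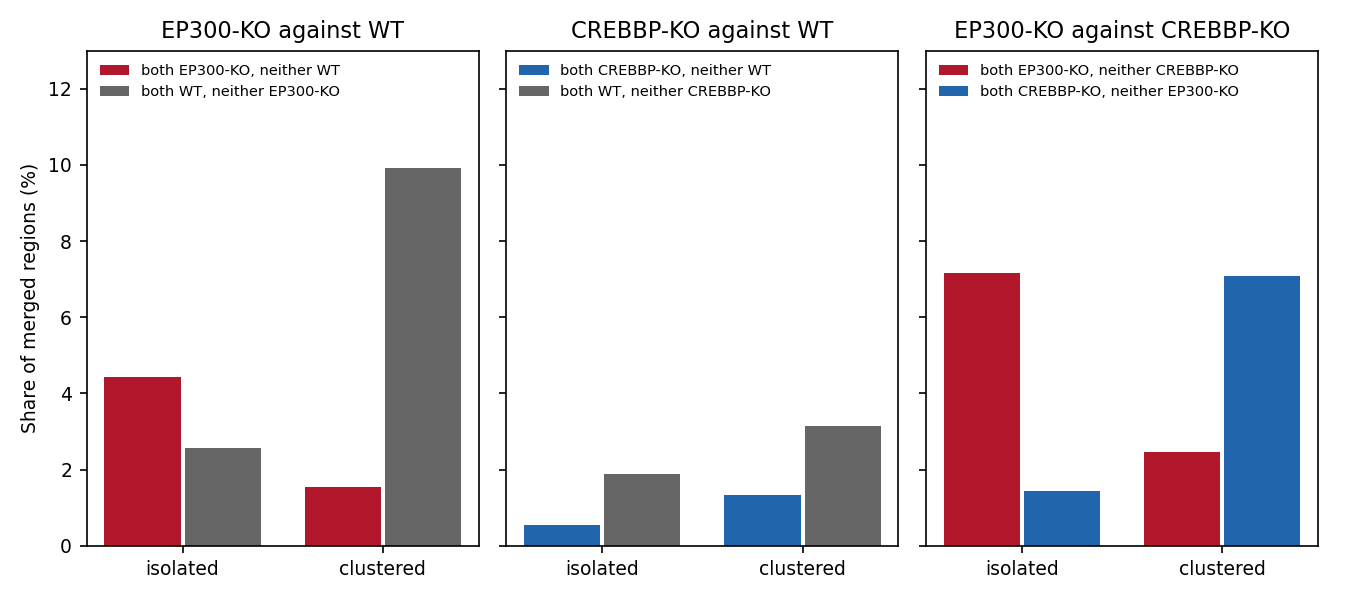
Share of merged regions of any clone, in percent, with a peak in both clones of 1 genotype and neither of the other, for isolated and clustered regions in 3 contrasts. Isolated regions with a peak in EP300-KO alone stand at 4.44% against 2.57% in WT alone, and clustered regions at 1.55% against 9.92%.

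Isolated regions accordingly made up more of what the EP300-KO clones had. They were 5.55% and 5.26% of the regions with a peak in the EP300-KO clones, 4.41% and 3.85% in the CREBBP-KO clones, and 4.23% and 4.11% in the WT clones. The EP300-KO clones lay above the other 4, with p = 0.333 against either genotype (two-sided exact permutation test over clones, the smallest possible). Of the covered bases they were 5.15% and 4.93% in the EP300-KO clones, 4.13% and 3.95% in the CREBBP-KO clones, and 4.33% and 4.03% in the WT clones. The number of such regions did not separate EP300-KO from WT: 1532 and 1449 in the EP300-KO clones against 1620 and 1317 in the WT clones. The CREBBP-KO clones had 1226 and 1376. The clustered regions chosen in WT covered 20.55 and 21.04 Mb in the EP300-KO clones, 23.3 and 28.0 Mb in the CREBBP-KO clones, and 26.7 and 26.0 Mb in the WT clones.

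Covered length was compared between the knock-outs with limma on log2(covered bases + 100), centred on each clone's median, in regions that covered 500 bases or more in 2 or more clones. Of the 1236 isolated regions 943 were tested, and the other 293 were too short or in too few clones. EP300-KO was lower than CREBBP-KO in 25 isolated regions (2.65%, against 7.28% of all 19256 tested regions) and higher in 37 (3.92%, against 1.98% of all), or 62 in either direction (6.57%, against 9.26% of all). Among clustered regions, 1326 of 15893 were lower and 239 were higher. Without centring the split of the isolated regions turned to 27 lower and 8 higher. It also turned with single clones left out, to 15 lower and 3 higher without the first EP300-KO clone, 19 and 11 without the second, and 4 and 3 without the first CREBBP-KO clone, and to 73 and 68 with peaks within 1 kb joined. Without the second CREBBP-KO clone it was 6 lower and 18 higher. Which direction prevails among the calls is therefore not settled by these clones. The median log2 difference over the isolated regions tested was 0.15, against 0.04 over all tested regions, and without centring -0.01 against -0.13, centring having moved all regions alike. The 62 calls came to between 7 and 30 without 1 clone of either knock-out, of 921 to 936 regions tested. Shares called over all tested regions are given for the main setting alone.

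Of the 25 isolated regions lower in EP300-KO, 8 had no peak in either EP300-KO clone. At chr5:40484618-40487562 the EP300-KO clones had 0 and 99 covered bases, the CREBBP-KO clones 1895 and 2945, and the WT clones 2718 and 1745. The log2 difference between EP300-KO and CREBBP-KO was -3.96 (SE 0.369, adjusted p = 0.00783), and the call was lost when either CREBBP-KO clone was left out (highest adjusted p 0.0629). At chr8:114132280-114133901 the EP300-KO clones had no covered base, the CREBBP-KO clones had 638 and 1622, and the WT clones had 999 and 1131 (adjusted p = 0.0101 between the knock-outs). This region lay 856.8 kb from its nearest neighbour, among the 34 isolated regions farther than 500 kb. At chr10:70541343-70542450 the EP300-KO clones again had none, the CREBBP-KO clones had 631 and 1074, and the WT clones had 1105 and 964 (adjusted p = 0.00591). The calls at the last 2 regions were kept under all 15 alternatives. The remaining named regions, chr6:46523667-46524678 and chr9:68156185-68157332, also had no covered base in EP300-KO, with 894 and 985, and 765 and 1026, in the CREBBP-KO clones. Their adjusted p-values were 0.00634 and 0.0270, and the call was lost under 1 and 3 alternatives, each leaving out 1 clone (highest adjusted p 0.0507 and 0.134).

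Of the 37 isolated regions higher in EP300-KO, all had a peak in both EP300-KO clones and 3 had none in either CREBBP-KO clone. At chr10:125939144-125941333 the EP300-KO clones had 2190 and 1991 covered bases, the CREBBP-KO clones 269 and 167, and the WT clones 731 and 624. The EP300-KO clones lay above WT and the CREBBP-KO clones below it. The log2 difference between the knock-outs was 2.97 (SE 0.251, adjusted p = 0.00619) and was called under all 15 alternatives, with values from 1.43 to 3.32. At chr16:49089795-49091998 the EP300-KO clones had 2175 and 1759 covered bases, the CREBBP-KO clones had none, and the WT clones had 752 and 115. Its adjusted p was 0.0182, and the call was lost when any of the 4 knock-out clones was left out (highest adjusted p 0.118). At chr1:152020099-152020861 the EP300-KO clones had 763 and 456 covered bases, the CREBBP-KO clones had none, and the WT clones had 648 and 563. Its adjusted p was 0.0138, and the call was likewise lost without any of the knock-out clones (highest adjusted p 0.263). The calls at chr7:30766068-30767160 (log2 difference 3.00, SE 0.593, adjusted p = 0.0402) and chr14:64911617-64912689 (2.70, SE 0.562, adjusted p = 0.0455) were lost under 4 of 14 and 8 of 15 alternatives, no centring among them (highest adjusted p 0.143 and 0.152).

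**Figure D5:**
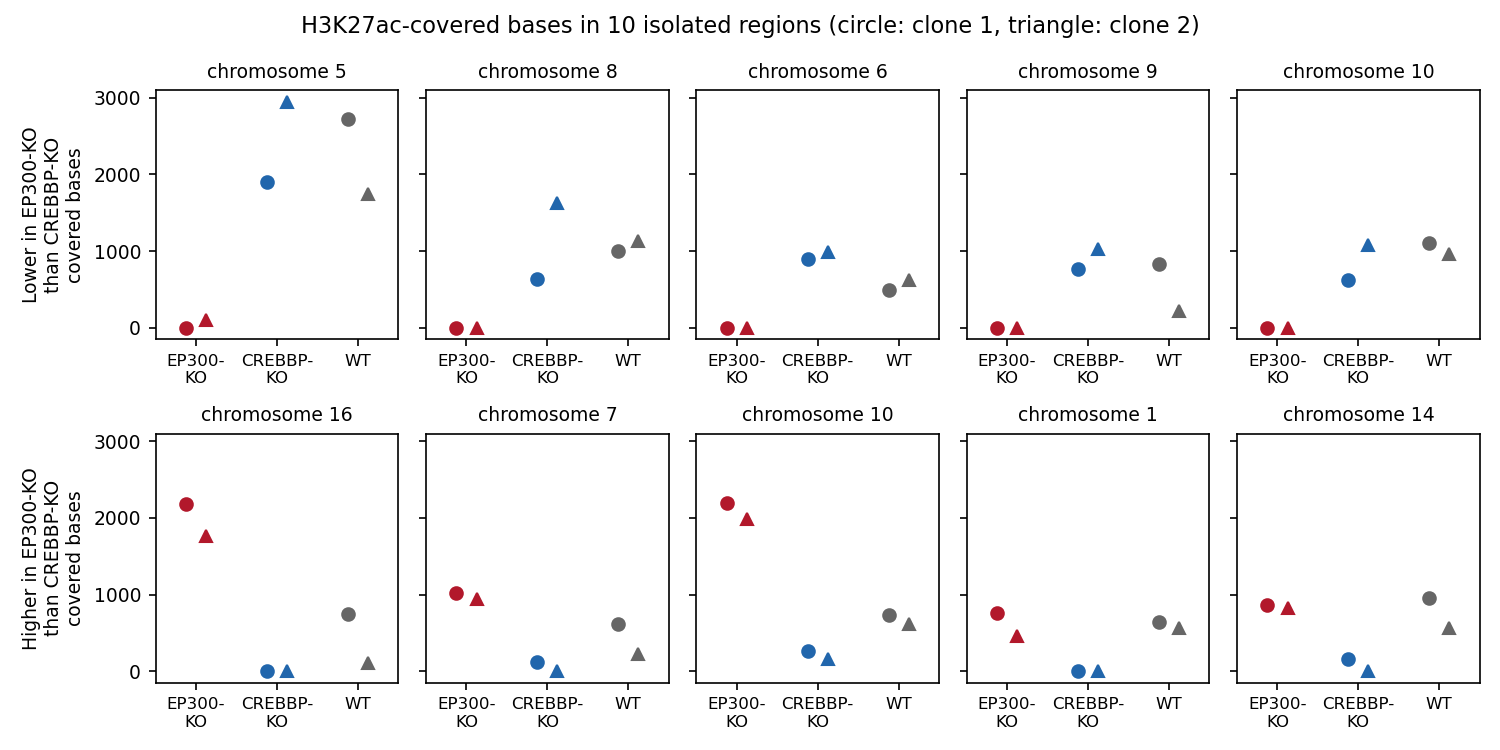
Covered bases per clone in the 10 isolated regions with the largest called log2 differences between the knock-outs, 5 lower (top) and 5 higher (bottom) in EP300-KO than in CREBBP-KO. Circles and triangles are the first and second clone of each genotype. In the top row the EP300-KO clones lie between 0 and 99 bases.

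The contrasts with WT use the clones that chose the regions, so their counts past the same threshold describe the regions and are no test of them. Of the 943 isolated regions tested, EP300-KO was past it in the lower direction in 18 (1.91%, against 6.21% of all tested regions). The higher direction held 14 (1.48%, against 1.25% of all), and either direction 32 (3.39%, against 7.46% of all). The lower and higher counts were 24 and 3 of 943 without centring, and 13 and 1 of 930 without the first EP300-KO clone. CREBBP-KO was past the threshold in no isolated region, against 0.00519% of all tested regions. An unadjusted limma p under 0.05 was found in 92 isolated regions (9.76%, against 8.88% of all). Both contrasts use the same WT clones.

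The longest isolated regions lost in EP300-KO were chr18:15315816-15317239 and chr9:126898956-126900513. The first covered no base in the EP300-KO clones, 0 and 1122 in the CREBBP-KO clones, and 1424 and 886 in the WT clones. The second covered none in the EP300-KO clones, 384 and 400 in the CREBBP-KO clones, and 1558 and 740 in the WT clones. The longest lost in CREBBP-KO was chr6:14276363-14277986, with 195 and 645 covered bases in the EP300-KO clones, none in the CREBBP-KO clones, and 1588 and 1263 in the WT clones. All 4 knock-out clones lacked chr2:222502439-222504086, which covered 1648 and 525 bases in the WT clones, and chr14:25142406-25144116, which covered 1700 and 240. These last 2 regions differed widely between the WT clones. The fifth named loss in CREBBP-KO, chr10:124300641-124301391, had 468 and 342 covered bases in the EP300-KO clones, none in the CREBBP-KO clones, and 751 and 195 in the WT clones.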

How the data were processed

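Each of the 6 immunoprecipitated libraries has a peak list, and 6 inputs entered only through those lists. CASAVA 1.8, Bowtie2 2.1.0, SAMtools 0.1.19 and the build hg19 are listed in the submitters' processing notes. Per the file headers, peaks were called per clone against its own input. The sources used here do not name the caller. The authors' deposited score per peak has no stated meaning and served to rank peaks inside a list, to shorten lists and to class regions. Starts were taken to count from 0, though no header says so, so a printed start may be off by 1 base. Depth is unknown.

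Peaks were joined and distances measured in Python (checked against bedtools 2.31.1). A clone had a region if a peak covered at least 1 base of it. Clustered shares were weighted to 5 classes of mean WT covered length. Neighbours include regions of any of the 6 clones. Limma 3.58.1 (R 4.3.3) was fitted with all 6 clones sharing 1 estimate of the spread and tested on simulated data. Where a group covers no base, no log2 difference is printed, since its size depends on the pseudocount. Both clones of such a group sit at the floor and add little spread, so the limma p-values printed there may be too small. Numbers of replicates are in accession order and pair nothing. P-values measure the spread between separate clones of 1 line.

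Named regions were the 8 longest in WT, the 5 most remote, the 5 longest lost in each knock-out, the 5 with the largest called difference between the knock-outs in each direction, and 3 on either side of 50 kb. The members and lists were chosen with earlier results of these data known. Alternatives changed the isolation distance, neighbours, joining, overlap, list length, length classes, pseudocount, filter, centring and clones.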

Additional observations from a re-analysis of the deposited data

How the results depend on the processing

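The length-adjusted difference in EP300-KO was negative under all 18 alternatives. It was -3.82 points at equal list length, -5.29 in classes of length and score, -11.9 with no length adjustment, -9.12 against clustered regions 1 to 10 kb from a neighbour (an alternative chosen after seeing the data), and -10.6 to -7.33 without 1 clone. In CREBBP-KO it ran from -2.68 to 5.05 without 1 clone. The share of isolated regions lost in EP300-KO was 2.88% at 100 kb and 4.28% to 18.2% without 1 clone, and in CREBBP-KO 2.12% where a peak had to cover 200 bases and 3.20% to 20.3% without 1 clone. The highest of these shares came without the second WT clone, which leaves regions chosen by the first alone. Without 1 clone of a knock-out, its lost share counts regions with no peak in the other clone alone. The difference in missing share between EP300-KO and CREBBP-KO changed sign at 25 kb (0.47 points), with peaks within 1 kb joined (0.13) and with 200 covered bases (0.22), and ran from -4.02 to 2.102 without 1 clone. In the main setting, 62 of 943 tested isolated regions were called between the knock-outs. The calls numbered 32 of 406 at 100 kb, 141 of 2138 with peaks within 1 kb joined and 35 of 943 without centring. Without 1 clone they ran from 7 of 936 to 75 of 943. Calls of EP300-KO against WT numbered 32 of 943 in the main setting, 50 of 1683 at 25 kb and 17 of 406 at 100 kb. They were 51 of 1142 with neighbours from WT alone and 91 of 2138 with peaks joined. Without 1 clone they ran from 14 of 930 to 30 of 1000. Calls of CREBBP-KO against WT numbered 0 to 8 without 1 clone, the 8 being of 943 tested. The number tested thus changed with the setting, and shares called over all tested regions are given for the main setting alone. The causes were not tested. The comparison of a single WT clone with the other cannot be made without 1 of them. No paired analysis was made, because these are separate single-cell clones and nothing in the labels pairs them across genotypes. The 2 clones a genotype and the unknown depth limit every comparison.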

Other observations

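Isolated regions found in a single clone were unequally spread. They numbered 116 and 43 in the EP300-KO clones, 10 and 45 in the CREBBP-KO clones, and 205 and 32 in the WT clones, of the 2026 isolated regions of any clone. Peaks of all 6 clones were present at a further 1074 (53.0%). The longest list, with 46940 peaks, was that of the first WT clone.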
